A study of Fundulus heteroclitus with 15 samples.

Results

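Muscle and cytoskeleton genes were followed in the livers of adult female mummichog (Fundulus heteroclitus, a small estuarine killifish) after exposure to the synthetic estrogen 17α-ethinylestradiol, EE2. The members are the array probes whose names contain 1 of 13 search words: myosin, troponin, tropomyosin, actin followed by a comma, actinin, parvalbumin, creatine kinase, nebulin, titin, desmin, tubulin, keratin or dynactin. The search found 153 of the 7152 probes, and 110 of these were bright enough to test, among 6145 tested in all. Fish were held for 14 days in water with 0, 50 or 250 ng/L EE2, and liver RNA was hybridised to 15 one-colour Agilent arrays, 5 biological replicates per group. The labels name no strain, and they do not say whether an array holds 1 fish or several.

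Contraction in striated muscle (skeletal and heart) rests on the sarcomere, in which myosin heads pull on actin filaments, troponin and tropomyosin make that pull depend on calcium, and titin holds the filaments in register. Smooth muscle of vessels and ducts has no troponin and is switched on by phosphorylation of a myosin light chain. Every cell also has a general cytoskeleton of cytoplasmic actin, tubulin and, in epithelia, keratin; dynactin links the dynein motor to its cargo on microtubules, and hepatocytes are known for simple epithelial keratins. A bulk liver sample holds hepatocytes together with vessels, ducts and blood, so fewer cells of a type and less RNA per cell cannot be told apart here.

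By their names alone, 60 members were striated muscle genes, 6 smooth muscle genes and 52 general cytoskeleton genes. A further 26 had names that do not tell the muscle type, and 9 matched only because their name contains keratin (keratin-associated and keratinocyte-associated proteins). All values below are levels on a log2 scale, in which 0 is the 75th percentile of the same array. A level can be compared between arrays for 1 probe, but not between probes. A probe counted as called when its limma p, adjusted by the Benjamini-Hochberg method over all 6145 probes, was under 0.05.

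General cytoskeleton probes were the most widely detected. Of those 52 probes, 40 were well above background on all 15 arrays and 49 were tested. Of the 60 striated probes, 13 were above background on all arrays, 11 on none and 22 on at most 1, and 31 were tested. Among the undetected ones were telethonin (the titin cap protein) and slow troponin I. So were 1 of 3 muscle creatine kinase probes and 1 of 3 alpha parvalbumin probes. Other probes of these families were detected. Of 15 striated troponin probes 9 were tested and 6 were above background on all arrays. For 10 parvalbumin probes these counts were 6 and 2, and for 9 sarcomere scaffold probes (titin among them) 4 and 2. For 5 striated creatine kinase probes they were 2 and 0. Of the 6 smooth muscle probes 4 were tested, and 1 was above background on every array.

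Array brightness, the 75th percentile of the processed signal, ranged from 544.5 to 3576.4, and 75.6% to 91.7% of probes per array were above background. The lowest shares, 79.1% and 75.6%, were those of EE2 250 ng/L arrays 1 and 2. Brightness differed by group: control arrays read 1393.4, 1464.4, 2464.5, 1733 and 2470.1. The 50 ng/L arrays read 3576.4, 1021.5, 544.5, 868.3 and 729.2, and the 250 ng/L arrays 800, 798.4, 2190.1, 2784.8 and 1216.3. Most arrays of both EE2 groups were thus dimmer than every control. The part of array brightness in the differences of dim probes was not tested. Hepatocyte marker probes, of which 52 of 54 were tested, had a summed log2 level of 11.09 to 12.16 at 250 ng/L and 11.13 to 12.08 at 50 ng/L, against 11.33 to 11.79 in controls. Of these 52 probes 1 was called higher in each comparison with control, where 2.05% of all probes were called higher at 250 ng/L and 0.553% at 50 ng/L. Their differences ran from -1.99 to 5.39 at 250 ng/L and from -3.25 to 2.93 at 50 ng/L. Pancreatic enzyme probes, also part of many fish livers, had summed levels of 10.01 to 11.66 at 250 ng/L and 10.04 to 11.56 at 50 ng/L, against 10.26 to 10.82 in controls, with 0 of 74 called in either comparison. The median difference of these 74 probes was 1.01 at 250 ng/L, with 59 above 0, and 0.71 at 50 ng/L, with 60 above 0; their part in the results below was not tested. Endothelial probes (13 tested) had a median difference of -0.15 at 250 ng/L (range -0.75 to 1.82) and 0.09 at 50 ng/L (range -0.26 to 2.10). Their sums, in which bright probes weigh most, were -0.13 to 4.22 at 250 ng/L, 3.61 to 4.79 at 50 ng/L and 0.98 to 4.49 in controls. In that order leukocyte probes (25 tested) summed to 7.87 to 8.81, 8.11 to 8.48 and 7.91 to 8.67. Red blood cell probes (14 tested) summed to 7.10 to 7.66, 6.96 to 7.85 and 6.79 to 7.87. At 250 ng/L 1 probe of the endothelial list was called higher, where 2.05% of all probes were. It is the filamin A probe that is also counted among the actin-binding probes below, so the 2 lists share 1 call. Called lower were 1 leukocyte and 1 red blood cell probe, where 0.651% of all probes were called lower. The part of these cell types in the results below was not tested. The 2 slides each held arrays of all 3 groups.

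Few members were called, as were few probes of the whole array, and a member that was not called is not thereby shown to be unchanged. At 250 ng/L against control 4 of 110 tested members were called, 3 higher and 1 lower, where 2.7% of all probes were called, 2.05% higher and 0.651% lower. At 50 ng/L against control 0 of 110 members were called, where 0.553% of all probes were called, all of them higher. Between 250 and 50 ng/L, 3 members were called, 2 higher and 1 lower at 250 ng/L, against 1.09% of all probes (1.06% higher and 0.0325% lower). The 2 comparisons with control share the control arrays. The called members were a 50 kDa type I keratin, a keratin-associated protein, smooth muscle myosin heavy chain and dynactin subunit 2; 0 of 31 striated members were called in any of the comparisons.

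At an unadjusted limma p under 0.05, 5 members were higher and 2 lower at 50 ng/L, where 4.1% of all probes passed, 2.51% higher and 1.59% lower. At 250 ng/L 11 members were higher and 2 lower at that p, where 13.7% of all probes passed, 6.2% higher and 7.52% lower. Of those at 250 ng/L, 6 higher and 1 lower were striated. Without regard to a test, 4 members lay wholly above and 2 wholly below the control arrays at 250 ng/L, where 4.41% of all probes did not overlap, 2.49% above and 1.92% below. At 50 ng/L 1 member, the 50 kDa keratin, lay wholly above the controls, where 1.2% of all probes did not overlap, 0.83% above and 0.374% below.

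**Figure D1:**
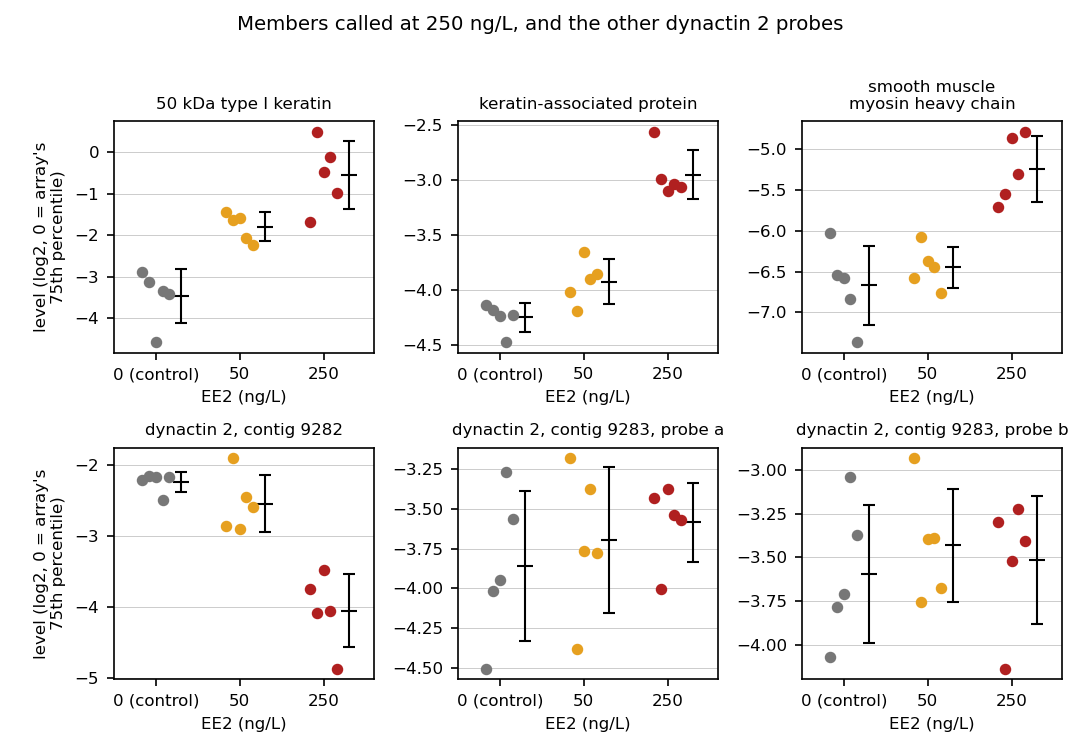
Each point is 1 array and the vertical axis is its log2 level relative to that array's 75th percentile; bars show the mean and SD of 5 arrays, by EE2 concentration. The first 4 panels show the members called at 250 ng/L, whose 250 ng/L arrays do not overlap the control arrays; the last 2 show the other dynactin 2 probes, a and b, whose groups overlap.

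The largest rise among the called members was that of the 50 kDa type I keratin, on contig An_u_12521; type I keratins are the acidic partners in keratin filaments. The control arrays read -2.89, -3.12, -4.57, -3.35 and -3.41, the 50 ng/L arrays -1.44, -1.63, -1.57, -2.08 and -2.24, and the 250 ng/L arrays -1.68, 0.49, -0.47, -0.12 and -0.98. Every EE2 array was above every control array, and array 1 of the 250 ng/L group lay within the 50 ng/L range. The difference was 2.92 ± 0.381 (log2, SE) at 250 ng/L, or 7.56-fold higher, with an adjusted p of 0.000164. At 50 ng/L it was 1.68 ± 0.381, with an adjusted p of 0.0819, which misses the threshold; without EE2 250 ng/L array 1 or 2, which enter through the shared spread, the adjusted p was 0.0322 or 0.0439. The 250 ng/L arrays averaged 1.24 ± 0.381 above the 50 ng/L arrays, with an adjusted p of 0.228.

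The other 8 keratin probes did not pass the test at either concentration. Keratin 19, typical of duct epithelium, differed by 0.65 ± 0.32 (adjusted p = 0.4) at 250 ng/L, and 1 of the 2 probes for the type I keratin endo B, the mouse counterpart of keratin 18, by 0.51 ± 0.241 (adjusted p = 0.376). Keratin 13, typical of stratified epithelia in mammals, differed by 0.05 ± 0.323. The arrays of both EE2 groups overlapped the controls for each of these 3 probes. Within groups, the 50 kDa keratin varied over the arrays with little relation to the others: its correlations with them over the 15 arrays, after removing group means, ran from -0.12 to 0.24. Low correlations were not particular to it. Of the 3 keratin 18 probes, 2 on neighbouring contig numbers correlated at 0.97, but the third correlated with them at only 0.27 and 0.23. The 2 keratin endo B probes correlated at -0.06. The arrays share their scaling, so these correlations are descriptions only.

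Dynactin subunit 2 (dynamitin, the p50 subunit whose excess takes the dynactin complex apart) was lower on 1 of its 3 probes. On contig An_u_9282 the control arrays read -2.21, -2.15, -2.16, -2.49 and -2.17, the 50 ng/L arrays -2.86, -1.90, -2.90, -2.44 and -2.59, and the 250 ng/L arrays -3.75, -4.08, -3.48, -4.05 and -4.86. All 5 arrays at 250 ng/L were below all others, while the 50 ng/L arrays overlapped the controls. The difference from control at 250 ng/L was -1.81 ± 0.252, or 3.51-fold lower, with an adjusted p of 0.000309. Against the 50 ng/L arrays the 250 ng/L arrays fell by 1.51 ± 0.252, with an adjusted p of 0.00646. On contig An_u_9283, which carries the same protein name, 1 probe averaged -3.58 ± 0.25 at 250 ng/L and -3.86 ± 0.47 in controls (SD, n = 5 arrays each). The other probe averaged -3.52 ± 0.37 and -3.60 ± 0.40 in the same groups, and neither passed the test (adjusted p = 0.714 and 0.933). The pair on contig An_u_9283 correlated at 0.88 with each other within groups, and at -0.28 and -0.31 with the probe on An_u_9282. The 5 other tested dynactin probes (the p150 subunit, which binds dynein and microtubules, and subunits 3, 4 and 6) were not called.

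Smooth muscle myosin heavy chain, the motor protein of smooth muscle, was higher at 250 ng/L on a dim probe named for the gizzard protein. The control arrays read -6.02, -6.55, -6.58, -6.84 and -7.36, the 50 ng/L arrays -6.58, -6.08, -6.37, -6.45 and -6.76, and the 250 ng/L arrays -5.71, -5.55, -4.87, -5.31 and -4.79. All 250 ng/L arrays lay above every other array, and the 50 ng/L arrays overlapped the controls. The probe was above background on 5 of 5 arrays at 250 ng/L and on 3 of 5 in each other group. It rose by 1.43 ± 0.254 against control (2.69-fold, adjusted p = 0.00354) and by 1.20 ± 0.254 against 50 ng/L (adjusted p = 0.0323). With normexp background correction the difference from control was 0.71 (adjusted p = 0.373), and with the authors' deposited table it was 1.33 (adjusted p = 0.303), so the call is lost under both. The call against 50 ng/L missed the threshold in 15 of 25 settings, among them the slide as a block (1.17, adjusted p = 0.0553), quantile scaling (1.17, adjusted p = 0.0589), cyclic loess (1.19, adjusted p = 0.0622) and normexp (0.10, adjusted p = 0.942).

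The other 3 tested smooth muscle probes were not called. The regulatory light chain on contig An_u_13917, whose phosphorylation starts contraction, averaged 1.46 ± 0.43 at 250 ng/L and 1.42 ± 0.42 in controls (SD, n = 5 each), a difference of 0.03 ± 0.246. Myosin light chain kinase, which makes that phosphorylation, differed by 0.51 ± 0.326 at 250 ng/L (adjusted p = 0.567) and was above background on 3 and 2 of 5 arrays of these groups. A second regulatory light chain probe, on contig AN_v_13925, differed by 0.10 ± 0.306. The other smooth muscle genes on the array, found by the names transgelin, calponin, caldesmon, smoothelin and leiomodin, gave 5 tested probes with 0 called in either comparison with control and a median difference of -0.13 at 250 ng/L.

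The keratin-associated protein on contig An_u_12495 is named after a hair protein of the human genome and is no keratin. Its control arrays read -4.14, -4.18, -4.24, -4.48 and -4.23, the 50 ng/L arrays -4.02, -4.20, -3.65, -3.90 and -3.85, and the 250 ng/L arrays -2.56, -2.99, -3.10, -3.04 and -3.06. The 250 ng/L arrays did not overlap the others. The differences were 1.30 ± 0.163 against control (2.47-fold, adjusted p = 9.97e-05) and 0.98 ± 0.163 against 50 ng/L (adjusted p = 0.00646). With normexp the difference from 50 ng/L was 0.45 (adjusted p = 0.804), and that call was lost. The other 2 tested probes of that name differed from control by 0.23 ± 0.254 and 0.26 ± 0.224 at 250 ng/L and were not called. A further probe of that name, on contig An_u_12496, was too dim to be tested. Without the filter on dim probes it was 1.86 higher than control at 250 ng/L (limma adjusted p = 0.0076). A keratinocyte-associated protein 2 probe, on contig An_u_12585, averaged 1.60 ± 0.32 at 250 ng/L and 0.66 ± 0.56 in controls, a difference of 0.95 ± 0.254 that missed the threshold (adjusted p = 0.067). That difference passed without EE2 250 ng/L array 3 (1.06, adjusted p = 0.0463) and without control array 4 (1.07, adjusted p = 0.0359), and also with cyclic loess scaling (1.06, adjusted p = 0.0344) and array weights (1.18, adjusted p = 0.0104).

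Slides were compared for the 4 called members, because each slide holds all 3 groups. With the slide as a block the 250 ng/L differences were 2.84 for the 50 kDa keratin, 1.30 for the keratin-associated protein, 1.39 for smooth muscle myosin heavy chain and -1.88 for dynactin 2, all still called against control. Within slide 2 they were 3.23, 1.27, 1.88 and -2.19 and were called with 2 arrays at 250 ng/L and 3 controls. Within slide 1 they were 2.45, 1.28, 0.91 and -1.59, with 3 arrays at 250 ng/L and 2 controls; none was called there, and adjusted p ran from 0.232 to 0.494. The sign was the same on both slides for all 4.

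**Figure D2:**
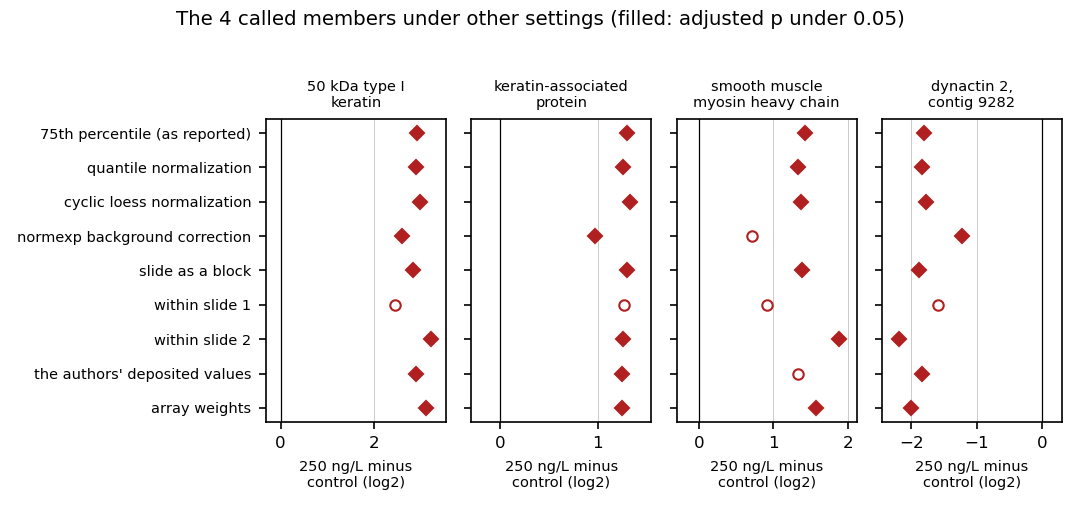
Horizontal axis: difference between 250 ng/L EE2 and control (log2) for the 4 called members, 1 row per way of processing; filled diamonds have an adjusted p under 0.05 and open circles do not. The sign is the same in every row, and the smooth muscle myosin heavy chain has 3 open circles.

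**Figure D3:**
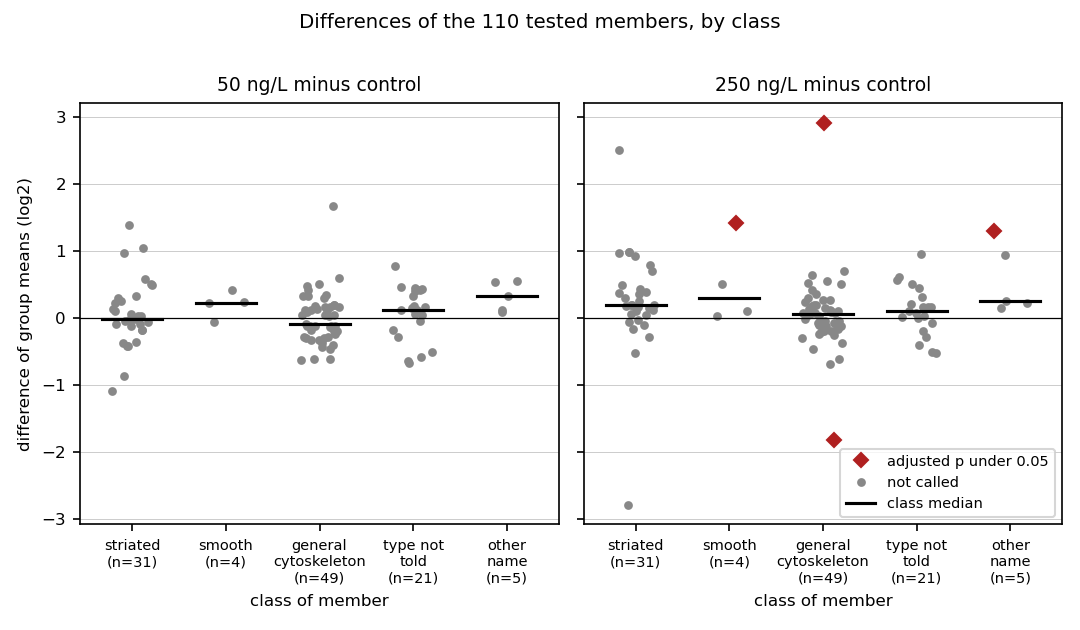
Each point is 1 of the 110 tested members, placed by its class, with the difference of group means from control (log2) on the vertical axis, at 50 ng/L on the left and 250 ng/L on the right. Diamonds are called members and black lines are class medians. All 4 diamonds are at 250 ng/L, and the striated class has none.

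Most striated muscle probes had a positive difference at 250 ng/L, although none of them passed the test. Of 31 tested, 24 were above 0 at 250 ng/L, with a median of 0.20, where 44.7% of all tested probes were above 0 and their median was -0.05. This was not particular to the striated class. At 250 ng/L 15 of 21 probes of untold muscle type, 4 of 4 smooth and 5 of 5 keratin-associated or keratinocyte-associated probes were above 0. Of the general cytoskeleton probes it was 27 of 49, and of all 110 members 68.2%. At 50 ng/L 15 of 31 striated probes were above 0, with a median of -0.01, where the median of all probes was -0.01. The class median moved with the arrays and the processing. At 250 ng/L it was 0.0451 within slide 1 and 0.51 within slide 2. It was 0.324 without control array 1, 0.31 without EE2 250 ng/L array 5 and 0.116 without control array 5. At 50 ng/L it was -0.43 within slide 1 and 0.42 within slide 2. With normexp it was 0.55 at 50 ng/L, while the median of all probes moved to 0.19. A filter that keeps probes bright in some arrays selects among dim probes, so these counts describe the 31 probes that passed and not the 60 on the array.

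**Figure D4:**
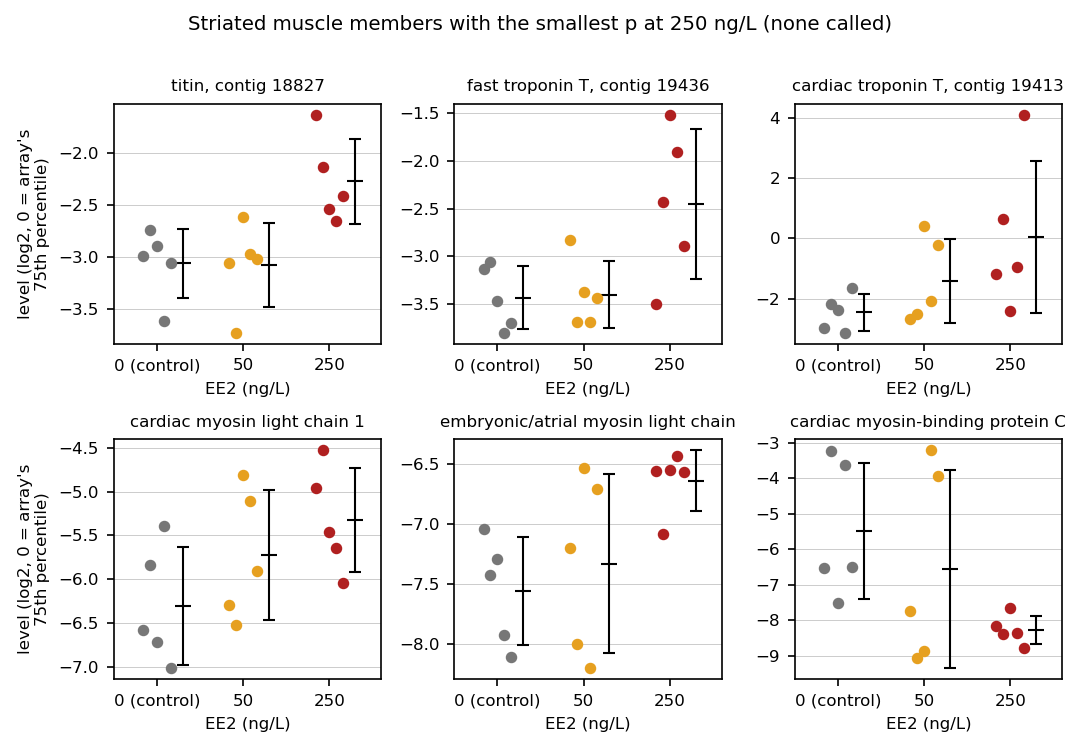
Points are arrays, by EE2 concentration, with the log2 level relative to the array's 75th percentile; bars are the mean and SD of 5 arrays. The 6 striated members shown were among the 8 with the smallest p at 250 ng/L and none was called; cardiac troponin T spans -2.41 to 4.11 among the 250 ng/L arrays.

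Titin, the giant spring protein of the sarcomere, had the smallest p of the class. On contig An_u_18827 the control arrays read -2.99, -2.75, -2.90, -3.62 and -3.06, the 50 ng/L arrays -3.06, -3.73, -2.62, -2.97 and -3.02, and the 250 ng/L arrays -1.64, -2.13, -2.54, -2.65 and -2.41. The 250 ng/L arrays were all above the controls and touched the 50 ng/L range. The difference from control was 0.79 ± 0.248 (1.73-fold), with an adjusted p of 0.138. The other tested titin probe, on contig AN_v_18834, correlated with this one at 0.06 within groups and was not called. The 4 tested sarcomere scaffold probes, these titin probes among them, differed from control by 0.06 to 0.79 at 250 ng/L.

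Troponin is the calcium switch of the thin filament. Fast skeletal troponin T, which anchors troponin to tropomyosin, read -3.14, -3.06, -3.47, -3.81 and -3.70 in controls on contig An_u_19436. It read -2.83, -3.69, -3.38, -3.69 and -3.44 at 50 ng/L and -3.50, -2.43, -1.52, -1.91 and -2.89 at 250 ng/L. Of these, 4 of the 5 arrays at 250 ng/L were above all controls and array 1 was within them. The difference was 0.98 ± 0.325 (adjusted p = 0.164), and without that array it was 1.25 (adjusted p = 0.0349). It missed the threshold in the other 25 of 26 alternative settings, among them leaving out EE2 250 ng/L arrays 1 and 2 together. A second fast troponin T probe, on contig AN_v_19439, correlated with it at 0.78 within groups and differed by 0.49 ± 0.312 (adjusted p = 0.564).

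Cardiac troponin T on contig AN_v_19413, the heart form of the same protein, varied widely among the EE2 arrays. It read -2.97, -2.17, -2.39, -3.14 and -1.63 in controls, -2.67, -2.50, 0.40, -2.08 and -0.22 with 50 ng/L EE2, and -1.17, 0.64, -2.41, -0.95 and 4.11 with 250 ng/L EE2. Every 250 ng/L array except array 3, which was within the controls, lay above all controls, and array 5 stood far above the rest. At 50 ng/L arrays 3 and 5 were above all controls. The mean difference of 2.50 ± 0.97 at 250 ng/L did not pass the test (adjusted p = 0.26), and leaving out 1 array at a time gave 1.49 to 3.12. The other tested cardiac troponin T probe, on contig An_u_19399, correlated with it at 0.09 within groups and was not called. The 9 tested striated troponin probes differed from control by -0.52 to 2.50 at 250 ng/L, and 6 of them were above 0. Summed over the 31 tested striated probes, the log2 level was 1.36 to 4.30 at 250 ng/L and 0.47 to 1.91 at 50 ng/L, against 1.11 to 1.30 in controls. Without the AN_v_19413 probe the sums were 1.08 to 1.56, 0.28 to 1.35 and 0.92 to 1.22 in the same order, and the 250 ng/L arrays then overlapped the controls. Skeletal troponin C, the calcium sensor of fast fibres, differed by 0.39 ± 0.301 at 250 ng/L, with an adjusted p of 0.652.

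Cardiac and atrial myosin light chains are small subunits on the neck of the myosin head. Cardiac light chain 1 on contig An_u_13590 read -6.58, -5.84, -6.71, -5.39 and -7.02 in controls, -6.29, -6.52, -4.81, -5.11 and -5.90 with 50 ng/L EE2, and -4.96, -4.53, -5.46, -5.65 and -6.04 with 250 ng/L EE2. The groups overlapped and the difference at 250 ng/L was 0.98 ± 0.399 (adjusted p = 0.289). The embryonic and atrial light chain, on contig An_u_13695, differed by 0.92 ± 0.322 (adjusted p = 0.191) and was above background on 3 of 5 arrays at 250 ng/L and on 2 of 5 controls. The atrial regulatory light chain on An_u_13776 differed by 1.38 ± 0.453 at 50 ng/L and 0.97 ± 0.453 at 250 ng/L, with adjusted p values of 0.634 and 0.362. None of the 8 tested striated myosin probes was called.

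Cardiac myosin-binding protein C, which tunes the myosin heads of heart muscle, had a negative difference at 250 ng/L on contig AN_v_13936. It read -6.53, -3.24, -7.50, -3.63 and -6.49 in controls, -7.72, -9.07, -8.85, -3.21 and -3.94 with 50 ng/L EE2, and -8.16, -8.37, -7.66, -8.36 and -8.77 with 250 ng/L EE2. Control arrays 2 and 4 and 50 ng/L arrays 4 and 5 were high, and all 250 ng/L arrays were low. None of the 5 arrays at 250 ng/L was well above background, against 2 at 50 ng/L and 5 controls. On the processed signal, the control mean of -5.48 was 3.12-fold above a floor of -7.12 for the 250 ng/L arrays. That floor averages the lowest level that still counted as well above background on each 250 ng/L array, or this probe where it read higher. Control arrays 2 and 4 lift the control mean, while control array 3 was below the floor. The fitted difference was not called (adjusted p = 0.28). The filter of at least 5 arrays was met by the controls alone, the group with the highest mean, so this gap is a description only. With normexp the fitted difference was only -0.44 (adjusted p = 0.774), so its size depends on the background correction.

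**Figure D5:**
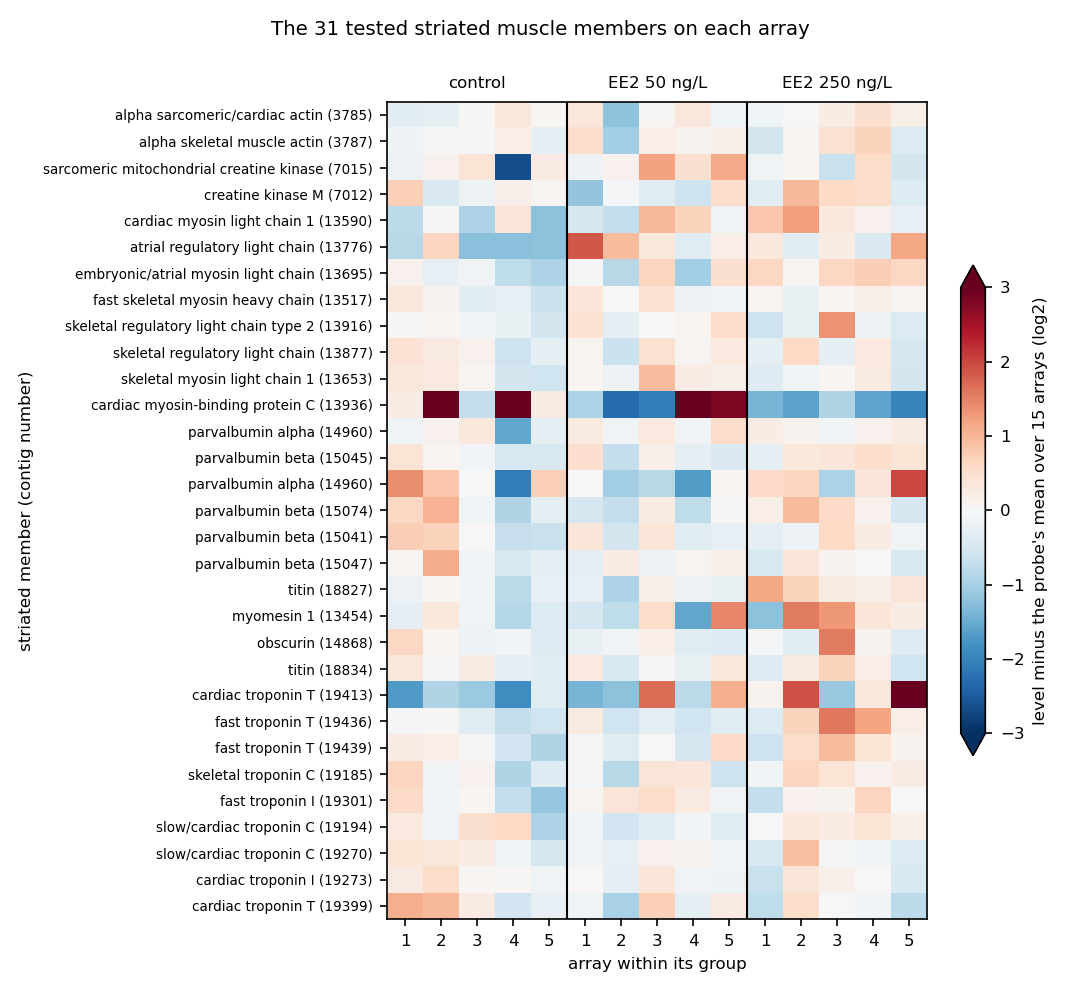
Rows are the 31 tested striated muscle probes, grouped by protein family with the contig number in brackets, and columns are the 15 arrays by group; colour is the log2 level minus the probe's mean over all arrays, with both ends of the scale open beyond 3. Cardiac troponin T on contig AN_v_19413 is far above its mean on EE2 250 ng/L array 5, and cardiac myosin-binding protein C is below its mean on all EE2 250 ng/L arrays.

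The median correlation between 2 tested striated probes, after group means were removed, was 0.30 over 15 arrays. It was 0.53 among the 9 striated troponin probes and 0.40 among the 6 parvalbumin probes, against 0.02 for a random sample of all tested probes. That sample was not matched for brightness, and the part of dimness in these correlations was not tested. The median was lower among the 8 striated myosin probes (0.20), the 2 striated creatine kinase probes (0.16) and the 4 sarcomere scaffold probes (0.14). Over the 49 general cytoskeleton probes it was 0.05. By family it was 0.31 among the 16 tubulin probes, 0.26 among the 6 general actin probes and 0.24 among the 9 keratin probes. Among the 5 general myosin, 8 dynactin and 5 general tropomyosin probes it was 0.23, 0.15 and -0.06. Between striated and smooth probes the median was -0.02, and between striated and general cytoskeleton probes it was -0.07. Alpha sarcomeric actin and alpha skeletal actin, the thin filament proteins of striated muscle, correlated at 0.80. Probes for similar sequences can bind the same RNA and all probes of an array share its scaling, so these values are descriptions without a test. The parvalbumins, calcium buffers of fast fish muscle, differed from control by -0.16 to 0.44 at 250 ng/L and -0.86 to 0.49 at 50 ng/L over 6 tested probes, and none was called.

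Tubulin and actin, the general filament proteins, gave no calls. The 16 tubulin probes (alpha and beta subunits, gamma-tubulin and 2 folding factors) were all tested; at 250 ng/L 9 were above 0 and their differences ran from -0.16 to 0.55, and at 50 ng/L 4 were above 0 and the range was -0.43 to 0.51. Alpha-tubulin on contig An_u_19757 averaged 2.75 ± 0.46 at 250 ng/L and 2.77 ± 0.28 in controls (SD, n = 5 each). Cytoplasmic actin on contig An_u_3812 averaged 4.75 ± 0.40 in controls, 4.62 ± 0.28 with 50 ng/L EE2, and 4.78 ± 0.22 with 250 ng/L EE2 (SD, n = 5 each). A second cytoplasmic actin probe, on contig An_u_3811, differed by -0.69 ± 0.363 at 250 ng/L (adjusted p = 0.451) and overlapped the controls. Tropomyosin 4, a non-muscle tropomyosin, differed by 0.48 ± 0.212 at 50 ng/L on contig AN_v_19167 and by 0.19 ± 0.212 at 250 ng/L (adjusted p = 0.999 and 0.762).

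None of the 5 tested general myosin probes was called. The myosin phosphatase targeting subunit 1, which directs the enzyme that removes phosphate from myosin light chains, differed by 0.70 ± 0.299 at 250 ng/L (adjusted p = 0.313). The non-muscle myosin II heavy chain, the motor of cell contraction and division outside muscle, differed by 0.52 ± 0.271 (adjusted p = 0.437).

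Among members whose muscle type the name does not tell, 0 of 21 were called. Brain-type creatine kinase, which regenerates ATP from phosphocreatine, read -0.80, -0.70, -1.20, -0.24 and -0.46 in controls, -1.41, -0.88, -1.72, -1.28 and -1.04 with 50 ng/L EE2, and -1.24, -0.43, -0.03, -0.24 and -0.65 with 250 ng/L EE2. The 50 ng/L arrays were on the low side and overlapped both other groups. The difference was -0.58 ± 0.252 at 50 ng/L and 0.16 ± 0.252 at 250 ng/L, with adjusted p values of 0.999 and 0.842. The testis creatine kinase probe differed by -0.64 ± 0.27 and 0.08 ± 0.27 at these concentrations and correlated with the brain-type probe at 0.98 within groups, so these probes did not vary independently of each other. The 6 probes of myosin light polypeptide 6, an essential light chain of smooth and non-muscle myosin, differed by -0.40 to 0.52 at 250 ng/L. Desmin, the intermediate filament of muscle, gave 1 tested probe with a difference of 0.01 at 250 ng/L. The 2 tested probes of muscle actin correlated at -0.67 within groups and differed by 0.96 and 0.01 at 250 ng/L, neither called.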

How the data were processed

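Liver RNA on 15 arrays, 5 per group, was labelled with Cy3, per the labels' protocols. Intensity values were read by Agilent Feature Extraction 10.7.1.1, per the file headers. The authors' deposited table holds log2 values with column medians from 7.66 to 7.70; the labels do not state its steps, and it was used only as an alternative.

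Outlier spots were dropped, the log2 processed signal of a probe's 2 spots was averaged, and the array's 75th percentile was subtracted. Probes well above background on at least 5 of 15 arrays were tested with limma 3.58.1 in R 4.3.3 (group means over all arrays, 12 residual degrees of freedom, Benjamini-Hochberg adjustment over 6145 probes). The normexp alternative (offset 50) used the median spot signal; a mean signal was not used here. The number of arrays limits the precision. The code was tested on simulated data.

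Members and lists were chosen with earlier results of these data known. Classes came from names alone. Named members are those called in any comparison, up to 8 per class with the smallest p at 250 ng/L and 3 at 50 ng/L, the 4 brightest of a class in controls, and all probes of a called gene. Probes named beyond that rule were chosen after their values were seen. They are the second titin, cardiac troponin T, muscle actin and keratin endo B probes and the keratin 18 probes. Skeletal actin, desmin and undetected fibre genes were also chosen in this way. The keratin-associated probe on contig An_u_12496, too dim to be tested, is another. Array gene names may be outdated. Probes that matched a comparison list only because a search word is part of another word (coagulation factors, annexin A5, a cobalamin enzyme, and filamin among intermediate filaments) were dropped from it. The labels do not say whether replicates came from separate tanks.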

Additional observations from a re-analysis of the deposited data

Results flagged for a closer look

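Among 159 groups of 5 arrays checked, 14 had 1 array far from its other 4, by Dixon's test (gap over range above 0.71); chance flags about 1 group in 20. The values below are log2 levels, and no cause was tested.

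At 250 ng/L EE2, the keratin-associated protein on contig An_u_12495 read -2.56 on array 1, where the others read -3.10 to -2.99. The embryonic and atrial myosin light chain read -7.09 on array 2, where the others read -6.57 to -6.44. Troponin C-akin-1 read -0.67 on array 3, where the others read -1.78 to -1.49. Alpha-tubulin on contig An_u_19767 read 0.0564 on array 1, where the others read -0.996 to -0.72.

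At 50 ng/L EE2, array 2 was low on each of 3 flagged probes. Tropomyosin 3 on contig An_u_19155 read -4.05 there, against -3.06 to -2.76 on the other arrays. Ubiquitous mitochondrial creatine kinase read -6.47, against -4.46 to -3.88. The smooth muscle regulatory light chain on contig AN_v_13925 read -7.60, against -6.86 to -6.68.

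Among controls, array 4 was the outlying one for 3 probes: sarcomeric mitochondrial creatine kinase at -9.34 (others -6.86 to -6.29), dynactin subunit 2 on contig An_u_9282 at -2.49 (others -2.21 to -2.15) and myosin light polypeptide 6 on contig AN_v_13743 at 1.15 (others 0.09 to 0.32). Control array 1 was low for tropomyosin 3 on An_u_19155, at -4.50 against -3.43 to -2.99, and for the mean level of the general cytoskeleton members, at -2.22 against -1.97 to -1.87. The atrial regulatory light chain read -5.50 on control array 2, where the others read -7.39 to -6.97. Muscle actin on contig An_u_3816 read -4.09 on control array 5, where the others read -2.56 to -1.94.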

How the results depend on the processing

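Each result was recomputed under 26 other settings: 2 other scalings, 1 background correction, 2 filters, the slide as a block, within each slide, the authors' deposited values, array weights, leaving out 1 array at a time, and leaving out EE2 250 ng/L arrays 1 and 2 together, which was chosen after seeing the data. The 4 members called at 250 ng/L against control stayed 4 within slide 2 and became 0 within slide 1, where 3 arrays met 2. Over all 26 settings this count ran from 0 to 5, and leaving out 1 array gave 4 to 5. Smooth muscle myosin heavy chain was not called with normexp or the authors' values, and the filter on all 15 arrays left it out. The count of 3 between 250 and 50 ng/L was 1 with normexp (dynactin 2) and 0 within slide 1 and within slide 2. The count of 0 at 50 ng/L was 1, the 50 kDa keratin, with array weights (1.84, adjusted p = 0.0319) and without EE2 250 ng/L arrays 1 and 2; leaving out 1 array gave 0 to 1, with 1 for EE2 250 ng/L array 1 or 2. Smooth muscle myosin heavy chain against 50 ng/L missed the threshold in 15 of 25 settings that gave a value, with adjusted p from 0.00983 to 0.942. The keratin-associated protein against 50 ng/L missed it in 4 of 26, with 0.45 (adjusted p = 0.804) for normexp.

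Normexp moved the median of all probes to 0.19 at 50 ng/L, to 0.10 at 250 ng/L and, for the difference of the EE2 groups, to -0.14. Class medians with normexp at 50 ng/L were 0.55 (striated), 0.60 (smooth) and 0.15 (general), and between 250 and 50 ng/L -0.21, -0.20 and -0.0537. With the filter on all 15 arrays, which leaves 1 smooth probe, the smooth median was 0.0326 against control and -0.21 between the EE2 groups. Within slide 1 the striated median at 50 ng/L was -0.43. At 250 ng/L the striated median ran from 0.0451 within slide 1 to 0.51 within slide 2. Within slide 2 the striated medians were 0.42 at 50 ng/L and 0.51 at 250 ng/L, and between 250 and 50 ng/L the smooth and general medians were 0.45 and -0.0375. Leaving out 1 array moved the general median at 250 ng/L from -0.089, without EE2 250 ng/L array 1, to 0.0986. The cause of these moves was not tested. Of 3864 values of named members under other settings, 0 called values changed sign; 192 uncalled ones did. No paired analysis was possible because the labels carry no replicate numbers. Dim probes, striated ones above all, are the least certain.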

Other observations

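Other cytoskeleton genes on the array, found by name and not among the members, are given beside the whole array, on which 2.05% of tested probes were called higher and 0.651% lower at 250 ng/L. Of 29 tested actin-binding and actin-regulating probes, 1 was called at 250 ng/L: filamin A, which crosslinks actin filaments, was 1.82 higher (log2, adjusted p = 0.0373), and at 50 ng/L it differed by -0.07. This filamin A probe is also the 1 called in the endothelial list above. The 7 subunit probes of the Arp2/3 complex, cofilins, profilins, gelsolin and thymosins were not called. Of 12 tested probes in the microtubule list 2 were called lower at 250 ng/L, 1 of them an enzyme listed through an alias. Dynein light intermediate chain 2, a subunit of the motor that dynactin binds, fell by 0.63 (adjusted p = 0.0231). The other, formimidoyltransferase-cyclodeaminase, is an enzyme of histidine breakdown whose alias names it a microtubule-binding protein, and it fell by 1.09 (adjusted p = 0.0344). Of 5 tested probes for other intermediate filament and plakin genes 0 were called.

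Other muscle genes, such as myoglobin, a calcium pump and the muscle forms of glycolytic enzymes, gave 26 tested probes with 0 called in either comparison with control. Their median difference was 0.03 at 250 ng/L and -0.03 at 50 ng/L. Of 21 tested probes for collagens and other connective tissue genes 1 was called at 250 ng/L, against 2.05% of all probes called higher: collagen XVII alpha 1, an epithelial anchoring collagen, was 1.25 higher (adjusted p = 0.0289).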
